A study of Mus musculus with 14 samples.

Results

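Kinesins and cytoplasmic dynein are the motor proteins that carry cargo along microtubules, and their genes were described here in mouse brainstem, in RNA bound to tagged ribosomes and in the total RNA of the same tissue. The members were chosen by name alone from the deposited gene table: kinesin heavy chains whose symbol is Kif followed by a digit, the kinesin light chains Klc1 to Klc4, every symbol beginning Dync1, Dync2 or Dynl, and Dctn1 to Dctn6 of dynactin. The pattern matched 77 symbols, 3 pseudogenes were dropped, and 74 members remained of 55421 mouse genes. Of these, 73 code for protein, and Kif16bos is annotated as an antisense RNA and lies beside the Kif16b gene without overlapping it. The members held 0.799 to 0.996 percent of the counts of a library.

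Most kinesins walk towards the plus end of microtubules, which in axons points away from the cell body, and cytoplasmic dynein-1 walks the other way and needs the dynactin complex to work over long distances. Noradrenergic neurons of the locus coeruleus, a small brainstem nucleus, send long and highly branched axons through the brain, so supply and return of cargo depend on these motors. A second dynein, dynein-2, and kinesin-2 are best known for moving material within cilia, and a further set of kinesins works in the mitotic spindle of dividing cells. Tau, the protein at issue in the study, binds the same microtubules.

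The 7 mice had the TH-Cre transgene, which drives Cre recombinase from the promoter of Th (tyrosine hydroxylase), and a second transgene in which Slc6a2 (noradrenaline transporter) sequences drive the ribosomal protein Rpl10a fused to eGFP, on a C57Bl/6 background. All of them, controls included, had both transgenes. At 2 to 3 months of age they received an infusion into the locus coeruleus of human tau with the P364S change (animals B, C, L and M) or of EYFP, a fluorescent protein (animals H, I and K). From each came 1 immunoprecipitate of the tagged ribosomes (IP) and 1 total brainstem homogenate taken before it (pre-IP), which makes 4 tau IP, 3 EYFP IP, 4 tau pre-IP and 3 EYFP pre-IP libraries of polyadenylated RNA. How many cells took up an infusion is not given in the sources used here, and the tag is driven by Slc6a2 sequences and not by Cre, so tagged ribosomes need not come from cells with tau.

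Library totals ran from 41843489 to 65664551 counts, and 3 counts, the floor used here, were 0.0457 to 0.0717 CPM, the count per 1e6 counts of the library, before the scaling used for all other CPM here. The summed CPM of 12 noradrenergic markers was 1080 to 8200 in tau IP, 550 to 645 in EYFP IP and 375 to 500 in the pre-IP libraries, and none of the 12 was at 0 in a group. In tau IP against EYFP IP the summed ranges were 373 to 581 against 771 to 806 for 8 markers of other neurons, 467 to 903 against 822 to 1120 for 6 of astrocytes, 4160 to 10400 against 8490 to 13200 for 6 of oligodendrocytes and 93.2 to 146 against 147 to 172 for 6 of microglia. Several libraries stand apart: the RNA integrity number was 4.2 in the EYFP IP of animal I and 7.7 to 9 elsewhere, the EYFP libraries of animal K held 408 and 398 counts of the human tau construct, and animal M is labelled female but had 674 and 1153 counts on Y-linked genes. RNA from IP was 0.1 to 0.8 ng per microlitre in tau animals and 0.7 to 2.8 in EYFP animals. The part of these differences in the results below was not tested, and results are also given without each animal where that changes them. In such bulk RNA, fewer cells of a type and less of an RNA per cell cannot be told apart.

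Levels of members were compared with each other as TPM, the length-corrected form of CPM in which counts are divided by the exon length of the gene. Dynlrb1, a roadblock-type light chain of dynein, was the most abundant member, at 1380 to 2540 TPM over the 14 libraries. Dctn3, the p24 subunit of dynactin, followed at 811 to 1620, and Dynll2, an LC8-type light chain, at 805 ± 183 (mean ± SD, n = 14). Klc1, a light chain that links kinesin-1 to cargo, stood at 477 to 695. Kif5a, the neuronal heavy chain of kinesin-1, followed, and had the widest spread for its level among these 5, 105 to 911 TPM, with its lowest values in tau IP of animals B and C. These 5 genes made up 63.1 percent of all motor transcripts per kilobase, averaged over libraries, and the first 14 made up 88.1 percent. Each of the 5 overlapped in range with its neighbours in this order. Kif1a, the kinesin-3 motor of synaptic vesicle precursors, had a mean of 162 ± 51.4 (SD, n = 14), and Dync1h1, the heavy chain of dynein-1, only 17.8 ± 5.04.

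**Figure D1:**
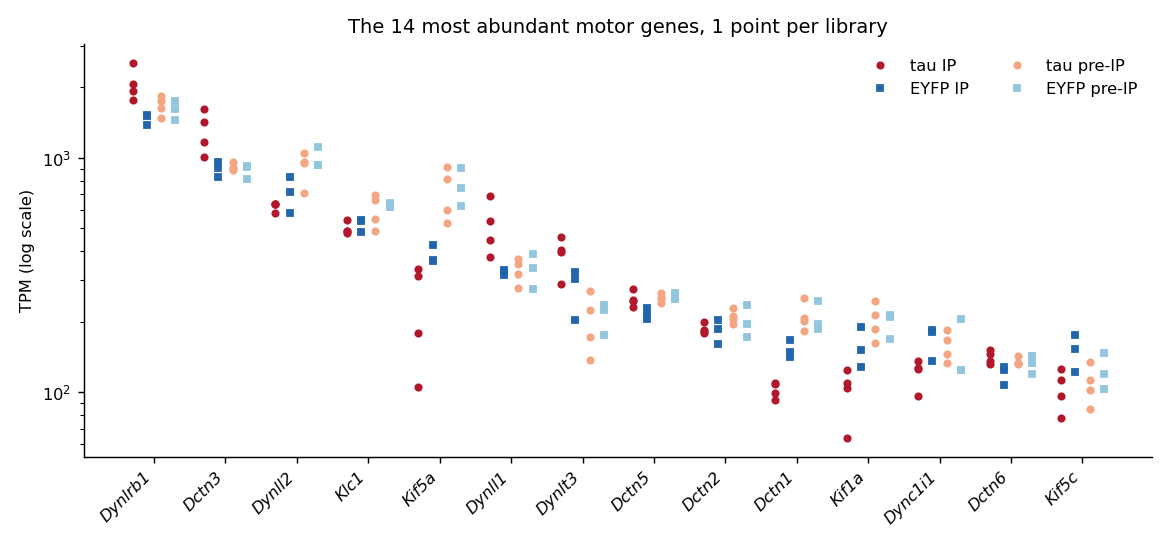
TPM on a log scale (vertical axis) of the 14 most abundant motor genes, 1 point per library, for the 4 tau IP, 3 EYFP IP, 4 tau pre-IP and 3 EYFP pre-IP libraries. Dynlrb1 is highest throughout, and Kif5a lies between 105 and 911 TPM with its IP values below its pre-IP values.

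At the other end, 22 members stayed below 100 counts in every library, and Kif2b and Dynlt2a1 had 0 counts in all 14. The mitotic kinesins belong here: Kif11, the spindle motor Eg5, did not exceed 0.507 CPM, and Kif20a, a motor of late mitosis and cytokinesis, did not exceed 1.11. Kif22, the chromosome-arm kinesin, was the exception at 5.63 to 15.5 CPM. Counts of some members are uncertain because other genes hold the same sequence. Of the 50-base stretches in their annotated transcripts, 70.5 percent of Dynlt1a, 83.2 percent of Dynlt1b, 88.9 percent of Dynlt1c and 88.6 percent of Dynlt1f also occur in another gene, mostly in each other. Kif3c shares 39.6 percent, chiefly with 1110002L01Rik, and Kif2a 19.7 percent, chiefly with Dimt1. Whether reads were counted by strand is not given in the sources used here. Kif16b (chromosome 2, 142617474 to 142901531, minus strand) and Kif16bos (142902965 to 142903572, plus strand) do not overlap. Of their 50-base stretches, 0 percent occur in another gene.

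The first comparison asks what the ribosome IP carries relative to the homogenate, over all 14 libraries with treatment as a further term in edgeR's quasi-likelihood test. Within several motor families the closely related genes went in opposite directions: Kif5b rose and Kif5a fell, Kif3a rose and Kif3c fell, Kif21a rose and Kif21b fell. Of 63 members that passed the filter on low counts, 23 passed an adjusted p of 0.05 (36.5 percent of them, against 29.9 percent of all 19472 genes tested). 13 were higher in IP (15.6 percent of all genes were) and 10 lower (14.2 percent of all genes). DESeq2 called 24 members (38.1 percent, against 34.1 percent of all genes) and voom 26 (41.3 against 32.1 percent). At an unadjusted p of 0.05, edgeR and DESeq2 passed 27 members each and voom 29, against 40.5, 42.3 and 42.1 percent of all genes. The median log2 fold change was 0.0415 over the 63 members and -0.00356 over all genes. For 8 members the 7 IP values lay wholly above the 7 pre-IP values (12.7 percent, against 4.2 percent of all genes), and for 3 wholly below (4.76 against 5.19 percent). The median change was 2.33 for the 12 noradrenergic markers, all of which rose. It was 0.499 for 8 markers of neurons in general (4 rose, 1 fell), -0.133 for 8 of other neurons (0 rose, 1 fell), -0.245 for 6 of astrocytes (1 rose, 1 fell), -0.46 for 6 of oligodendrocytes (0 rose, 2 fell), -0.34 for 6 of microglia (0 rose, 3 fell) and -0.0684 for 4 of endothelial cells (0 rose, 0 fell). Their part in the motor values was not tested. With 1 animal left out at a time, 19 to 24 members passed (24 without I, 21 without K and 19 without M), and 18 of the 23 calls were kept each time.

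Kinesin-1 is the main motor of fast outward axonal transport, built from a pair of Kif5 heavy chains and a pair of light chains. Kif5b, the heavy chain found in all tissues, was at 133, 185 and 259 CPM in IP (lowest, median and highest of 7 libraries) against 49.1, 61.0 and 78.2 in pre-IP. The ranges did not overlap, and the level was 3.11-fold higher in IP (log2 fold change 1.64, SE 0.139, edgeR adjusted p = 1.47e-05). Kif5a (chromosome 10, 127225696 to 127263348, minus strand, GRCm38), which neurons use above all, was at 353, 901 and 1031 CPM in IP against 1296, 1785 and 2204 in pre-IP. Its lowest pre-IP library lay above its highest IP library (log2 fold change -1.17, SE 0.193, edgeR adjusted p = 0.000428). Kif5c, the other neuronal heavy chain, was at 265, 325 and 446 against 206, 283 and 319 CPM, and it did not pass the test (log2 fold change 0.28, SE 0.118, edgeR adjusted p = 0.0908).

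Counted per kilobase, Kif5a was the main kinesin-1 heavy chain in every library, but by a smaller margin in IP. Its share of the 3 Kif5 genes was 79.0 to 88.5 percent in pre-IP and 48.4 to 68.2 percent in IP, and it was smaller in IP in 7 of 7 animals. Kif5b took 1.89 to 4.17 percent in pre-IP and 10.8 to 15.9 percent in IP, and Kif5c 9.25 to 17.7 and 19.6 to 35.7 percent. In IP the Kif5b share was 12.2 to 15.9 percent in tau animals and 10.8 to 13.9 percent in EYFP animals, which overlap. None of the 4 light chains rose: Klc2 and Klc4 fell (log2 fold change -0.46 and -0.37, edgeR adjusted p = 0.0121 and 0.011), and Klc1 stood at -0.06 (SE 0.0987, adjusted p = 0.707) and Klc3 at -0.37 (adjusted p = 0.148).

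**Figure D2:**
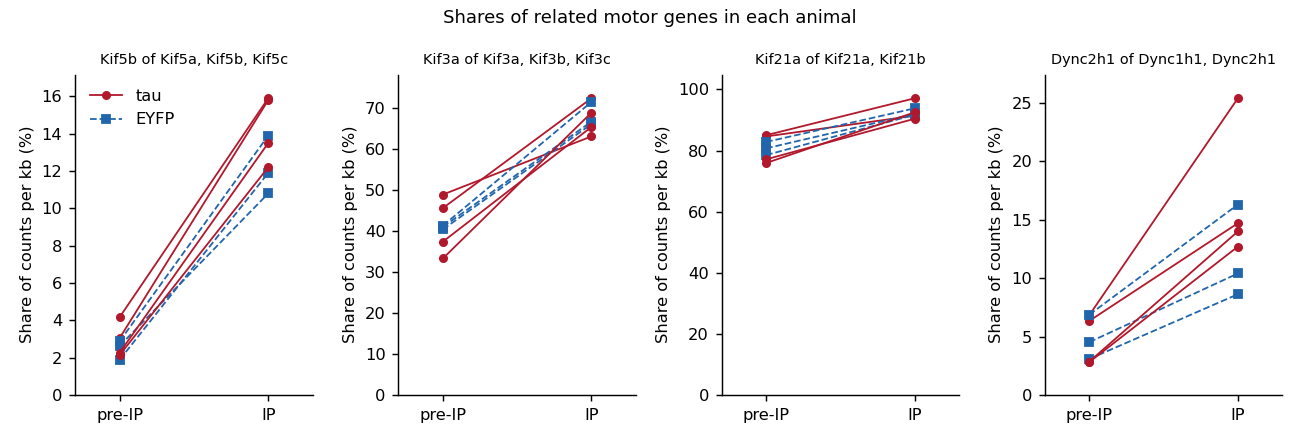
Share in percent of counts per kilobase (vertical axis) that 1 gene takes among its close relatives, in the pre-IP and IP library of each of 7 animals, joined by a line (tau animals solid, EYFP animals dashed). In all 7 animals the Kif5b, Kif3a, Kif21a and Dync2h1 shares are larger in IP, with Kif5b going from 1.89 to 4.17 percent up to 10.8 to 15.9 percent.

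Kinesin-2 works as a pair of unlike heavy chains, Kif3a with Kif3b or with Kif3c, joined to the accessory protein Kifap3, while Kif17 acts as a pair of its own. Kif3a was at 82.3, 114 and 138 CPM in IP against 42.9, 60.9 and 75.3 in pre-IP, and the ranges did not overlap (log2 fold change 0.87, SE 0.143, edgeR adjusted p = 0.000388). Kif3c, enriched in neurons, went the other way, at 66.7, 78.6 and 94.9 CPM in IP against 126, 146 and 177 in pre-IP (log2 fold change -0.87, SE 0.113, edgeR adjusted p = 8.33e-05). Per kilobase, Kif3a made up 63.1 to 72.4 percent of Kif3a, Kif3b and Kif3c in IP and 33.3 to 48.9 percent in pre-IP. Kif3b stood at a log2 fold change of -0.18 (adjusted p = 0.346) and Kif17 at -0.34 (adjusted p = 0.127). Kifap3, a gene of the list of kinesin adaptors, rose by 0.88 (SE 0.146, edgeR adjusted p = 0.00044), close to the value of Kif3a.

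Dynein-2 returns material from the tip of cilia, and 3 of its 4 genes rose. Dync2h1, its heavy chain (chromosome 9, 6928503 to 7184446, minus strand), was at 10.3, 14.4 and 22.7 CPM in IP against 3.25, 5.62 and 6.71 in pre-IP, 3.1-fold higher (log2 fold change 1.63, SE 0.21, edgeR adjusted p = 8.09e-05). Dync2i1, an intermediate chain also known as Wdr60, was at 8.01, 11.3 and 14.2 against 4.38, 5.61 and 6.94 CPM (log2 fold change 1.02, edgeR adjusted p = 0.00053). Dync2li1, the light intermediate chain, was at 23.6, 29.5 and 39.0 against 16.4, 19.5 and 22.1 CPM (log2 fold change 0.58, edgeR adjusted p = 0.00189). In each of the 3 the IP and pre-IP ranges did not overlap. Dync2i2, the second intermediate chain, also known as Wdr34, had a log2 fold change of -0.04 (SE 0.101, adjusted p = 0.821). Of 8 markers of ependymal and motile cilia 0 rose and 1 fell, and their summed level was 36.0 to 58.2 CPM in IP and 41.9 to 66.2 in pre-IP. The part of ciliated cells in the dynein-2 values was not tested.

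The promoter windows of Kif3a, Kif3c and Dync2h1 are shown because Kif3a and Dync2h1 rose while Kif3c, a partner of Kif3a, fell. Each runs from 250 bases before a gene start over 50 bases from it, 300 bases 5′ to 3′ on the gene's strand (RefSeq, GRCm38.p6), and lies at chr11:53567119-53567418 (plus strand), chr12:3364882-3365181 (plus) and chr9:7177009-7177308 (minus), the last inside the longer Dync2h1 span of the count table. Capitals mark, on either strand, the GC box GGGCGG, the CCAAT box CCAAT, the short cyclic AMP response site TGACG, the TATA box TATAAA and the X-box core GTTGCC, the last named after a motif of ciliary genes.
Kif3a: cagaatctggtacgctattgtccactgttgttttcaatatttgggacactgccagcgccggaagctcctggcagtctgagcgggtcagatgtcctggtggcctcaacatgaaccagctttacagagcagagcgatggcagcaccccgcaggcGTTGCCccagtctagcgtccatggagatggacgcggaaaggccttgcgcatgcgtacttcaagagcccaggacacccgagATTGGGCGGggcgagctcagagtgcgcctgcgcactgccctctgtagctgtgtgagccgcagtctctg
Kif3c: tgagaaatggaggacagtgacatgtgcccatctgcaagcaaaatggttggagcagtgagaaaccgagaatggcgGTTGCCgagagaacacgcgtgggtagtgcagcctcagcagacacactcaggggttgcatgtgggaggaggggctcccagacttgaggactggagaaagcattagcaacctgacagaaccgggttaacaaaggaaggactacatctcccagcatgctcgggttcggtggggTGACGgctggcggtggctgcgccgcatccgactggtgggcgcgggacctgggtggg
Dync2h1: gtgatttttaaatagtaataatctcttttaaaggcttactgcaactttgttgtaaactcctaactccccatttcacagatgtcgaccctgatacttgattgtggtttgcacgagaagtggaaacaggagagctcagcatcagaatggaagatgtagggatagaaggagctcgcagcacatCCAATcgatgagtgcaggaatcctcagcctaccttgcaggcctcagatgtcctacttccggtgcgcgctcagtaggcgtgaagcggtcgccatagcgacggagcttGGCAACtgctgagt
The X-box core occurs at bases 153 to 158 of the Kif3a window, 75 to 80 of the Kif3c window and, on the other strand, 287 to 292 of the Dync2h1 window. Kif3a also holds a CCAAT box on the other strand at bases 233 to 237 that overlaps a GC box at 236 to 241, Dync2h1 a CCAAT box at 181 to 185, and Kif3c the site TGACG at 245 to 249. Windows were matched by symbol for 50 of the 74 members, which have 57 windows. A member was counted if any of its windows held a motif, while the percent over all windows counts single windows, so these are unlike measures. The X-box core was in 16 of these 50 and in 12.5 percent of all 32851 windows, GGGCGG in 35 of 50 and 35.7 percent, CCAAT in 24 and 37.4 percent, TGACG in 20 and 20.8 percent, and TATAAA in 4 and 13.6 percent. Of the members that rose in IP, 9 had a window and 5 of them the X-box core, and of those that fell, 4 had a window and 2 the core. A match is a description of these letters only.

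Dynein-1 is the motor of inward axonal transport, and its subunits did not move together. Dync1i2, the intermediate chain used in all tissues, was at 54.5, 61.7 and 74.7 CPM in IP against 27.4, 38.9 and 42.6 in pre-IP, without overlap (log2 fold change 0.77, SE 0.12, edgeR adjusted p = 0.000271). Its neuronal relative Dync1i1 had a log2 fold change of 0.03 (adjusted p = 0.879), and per kilobase Dync1i2 made up 10.1 to 16.3 percent of the pair in IP and 6.54 to 9.46 percent in pre-IP. Dync1h1 was at 50.1, 89.5 and 143 CPM in IP and 81.5, 106 and 125 in pre-IP, with overlap (log2 fold change -0.14, SE 0.157, edgeR adjusted p = 0.533). Dync1li2 fell slightly (-0.26, edgeR adjusted p = 0.0364), a call lost without animal B (0.0675), C (0.064) or M (0.105).

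Dynactin links dynein to cargo and keeps it on the microtubule. Dctn1, the large p150 subunit that touches the microtubule, fell, with 250, 290 and 386 CPM in IP against 387, 433 and 571 in pre-IP (log2 fold change -0.59, SE 0.113, edgeR adjusted p = 0.00119). The gap was narrow, since the highest IP library (386.3) and the lowest pre-IP library (386.6) were those of the same animal, H. Dctn3 rose by 0.52 (adjusted p = 0.0222), a call lost without animal C (0.1) or L (0.0623). The other 4 subunits had log2 fold changes of 0.04 to 0.18 and did not pass.

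Among the light chains, which bind the dynein intermediate chains and many other proteins, Dynlt3 rose by 0.93 (SE 0.197, edgeR adjusted p = 0.0024), Dynlt2b, a dynein-2 light chain, by 0.63 (adjusted p = 0.00893) and Dynll1, an LC8 chain, by 0.57 (adjusted p = 0.036). The Dynll1 call was lost without any 1 of animals B, C, K, L and M (0.0524 to 0.125). Dynll2, the other LC8 chain, fell by 0.32 (edgeR adjusted p = 0.023), a call lost without animal L (0.0613) or M (0.0784). Each of these 4 overlapped between fractions.

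Of the remaining kinesins, Kif2a, a kinesin-13 that shortens microtubules and limits axon branches, was at 15.3, 19.6 and 25.4 CPM in IP against 6.14, 10.6 and 11.9 in pre-IP (log2 fold change 1.11, SE 0.172, edgeR adjusted p = 0.000272). Kif21a, a kinesin-4 that restrains microtubule growth, was at 84.7, 112 and 130 against 40, 53.0 and 59.8 CPM (log2 fold change 1.07, SE 0.117, edgeR adjusted p = 3.64e-05). Both pairs of ranges were separate. Its relative Kif21b fell by 0.55 (edgeR adjusted p = 0.0284), a call lost without animal K (0.0603), L (0.0864) or M (0.0645), and per kilobase Kif21a took 90.4 to 97.1 percent of the pair in IP and 75.9 to 85.0 percent in pre-IP. In kinesin-3, Kif1a fell by 0.53 (SE 0.141, edgeR adjusted p = 0.00972), with 287, 427 and 628 CPM in IP and 534, 596 and 793 in pre-IP, which overlap. Kif13b, a kinesin-3 of the same kind, fell by 0.62 (adjusted p = 0.0034), and the other 4 tested kinesin-3 genes stood at 0.05 to 0.26. Kif22 rose by 0.75 (adjusted p = 0.00156), the only 1 of 8 tested mitotic kinesins to pass, while 0 of the 3 tested markers of dividing cells passed.

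**Figure D3:**
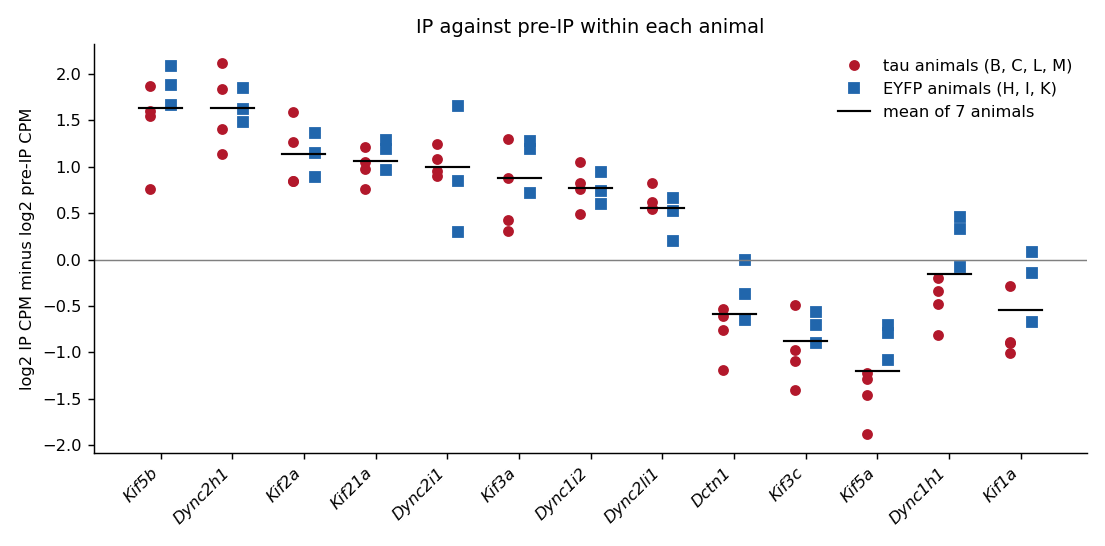
Difference of log2 CPM, IP less pre-IP, in each animal (vertical axis) for the members past the threshold without overlap between fractions, and for Dync1h1 and Kif1a. Circles are tau animals, squares EYFP animals and bars the mean of 7. Kif5b, Dync2h1, Kif2a, Kif21a, Dync2i1, Kif3a, Dync1i2 and Dync2li1 lie above 0 in all 7 animals and Kif3c and Kif5a below 0 in all 7.

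The fold between fractions was taken in each animal with its own pre-IP library. For Kif5b the log2 difference was 0.76, 1.54, 1.87 and 1.60 in tau animals B, C, L and M, and 2.08, 1.88 and 1.66 in EYFP animals H, I and K. For Kif5a it was -1.88, -1.46, -1.22 and -1.29 in the tau animals and -1.08, -0.79 and -0.70 in the EYFP animals. For Dync2h1 it was 1.40, 1.14, 2.12 and 1.84 against 1.62, 1.85 and 1.48. So the direction was the same in 7 of 7 animals for each of these 3 genes. Over the same animals the mean of the 12 noradrenergic markers was 4.65, 3.63, 3.54 and 1.70 in tau and 0.75, 0.93 and 0.64 in EYFP animals. In a fit of the EYFP animals alone, 9 members passed edgeR's test (7 higher, 2 lower), while 6.38 percent of all genes did. The 9 were Kif5b, Dync2h1, Kif2a, Kif3a, Kif21a, Dync2i1, Dync1i2, Kif3c and Kif5a, with log2 fold changes such as 1.87 for Kif5b and -0.87 for Kif5a. In a fit of the tau animals alone 21 of 62 passed (15 higher, 6 lower), while 20.7 percent of all genes did, with 1.44 for Kif5b and -1.41 for Kif5a.

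As family means per animal, dynein-2 had the highest value, 0.79 ± 0.17 (SD, n = 7), above 0 in 7 animals and nearly equal in tau (0.80 ± 0.07, n = 4) and EYFP animals (0.78 ± 0.28, n = 3). The kinesin-1 light chains stood at -0.33 ± 0.21 and the dynein-1 subunits at 0.10 ± 0.23. The kinesin-1 heavy chains averaged 0.23 ± 0.33, a mean of members that went opposite ways. Each member weighs the same in these means. As a share of motor transcripts per kilobase, dynein-2 was 1.39 ± 0.139 percent in tau IP and 1.43 ± 0.0915 in tau pre-IP (SD, n = 4). It was 1.71 ± 0.251 in EYFP IP and 1.37 ± 0.113 in EYFP pre-IP (n = 3). These means and shares are descriptions of named sets and carry no test.

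The list of 20 adaptors and cargo linkers of kinesins held 1 gene that rose, Kifap3, and 9 that fell, where 15.6 percent of all genes rose and 14.2 percent fell. The largest falls were those of Mapk8ip3 (-1.13, edgeR adjusted p = 8.33e-05), a scaffold that couples kinesin-1 and dynein to axonal cargo, Mapk8ip2 (-0.96, adjusted p = 0.000754), of the same scaffold group, Trak1 (-0.94, adjusted p = 0.000183), which joins mitochondria to kinesin-1, and Snph (-0.88, adjusted p = 0.000126), which anchors axonal mitochondria. Among 14 dynein regulators and adaptors, 4 rose and 4 fell, against the same shares of all genes. Pafah1b1, the lissencephaly protein LIS1 that activates dynein, rose by 0.89 (edgeR adjusted p = 0.000684) and Bicd1, a cargo adaptor, by 0.82 (adjusted p = 0.000794), as did the adaptors Hook1 and Hook3. Bicd2 fell by 0.68 (adjusted p = 0.000836) and Nde1, a partner of LIS1, by 0.69 (adjusted p = 0.00145), along with Ndel1 and Bicdl1. In the rod and cap of dynactin 1 of 6 genes rose (Actr10) and 1 fell (Actr1b), and of 3 tested C-terminal kinesins Kifc2 and Kifc3 fell. The median over all genes tested was -0.00356, against -0.236 for the kinesin adaptors and 0.027 for the dynein regulators.

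The second comparison is the one the study was designed for, tau IP against EYFP IP in 7 libraries. In tau IP the dynein light chains Dynll1, Dynlrb1, Dynlt2b and Dynlt3 and the dynactin subunits Dctn3, Dctn5 and Dctn6 had higher values. The dynactin subunit Dctn1 and the heavy chains Dync1h1, Kif5a, Kif1a and Kif13b had lower values. For Kif5a and Kif1a even the unadjusted edgeR p was above 0.05, and no member passed edgeR's test after adjustment. edgeR called 0 of 62 members and 0 of 19472 genes (0 percent) at an adjusted p of 0.05. At an unadjusted p of 0.05, 13 members passed (10 higher and 3 lower), 21 percent of them, against 12 percent of all genes (7.93 percent higher and 4.06 percent lower). voom with quality weights called 0 of either, and 15 members and 2969 genes at an unadjusted p of 0.05. DESeq2 called 5 members and 411 genes (2.11 percent): Dynll1 (adjusted p = 0.0214), Dynlrb1 (0.0273), Dctn3 (0.0304), Dctn6 (0.0463) and Dynlt3 (0.0485), all higher. DESeq2 gave no adjusted p for Dynlt2b, Kif22, Kif13b, Kif4 and Dynlt1a. The same held for many other members of lower counts, such as Kif16b, Kif3b, Kif2a and Dync2h1. None of these could be among its calls. For 10 members every tau library lay above every EYFP library (16.1 percent, against 7.64 percent of all genes), and for 5 below (8.06 against 6.95 percent). With any 1 animal left out, I, K and M included, edgeR again called 0 members.

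Dynll1 was at 1280, 840.7, 653 and 567.2 CPM in tau IP of B, C, L and M and at 436.5, 450.9 and 453.1 in EYFP IP of H, I and K. Every tau library lay above every EYFP library, with animal B far above the rest (log2 fold change 0.92, SE 0.258, edgeR adjusted p = 0.318). Dynlrb1 was at 1235, 838.5, 731.4 and 689.1 CPM against 546.7, 486.1 and 545.1, again without overlap (log2 fold change 0.75, SE 0.209, edgeR adjusted p = 0.318). Dynlt2b was at 60.6, 37.8, 37.2 and 32.6 against 18.1, 24.9 and 25.5 CPM (log2 fold change 0.90, SE 0.245, edgeR adjusted p = 0.318). In each of these 3 genes animal B was the highest and M the lowest of the tau IP libraries. The noradrenergic mean above was also highest in B and lowest in M, but it is a difference of IP and pre-IP, an unlike measure. On that measure Dynll1 and Dynlt2b were lowest in M among tau animals. Dynlrb1 was lowest in L (0.93, 0.63, 0.29 and 0.41 in B, C, L and M). A link with the noradrenergic mean was not tested. Over the alternatives the adjusted p ran from 0.0214 to 0.636 for Dynll1, 0.0273 to 0.636 for Dynlrb1 and 0.0505 to 0.636 for Dynlt2b.

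The other members past an unadjusted p of 0.05 in that direction were Dctn3 (810.6, 597.4, 461.3 and 404.6 CPM against 334.5, 299.4 and 359.5), Dctn6, Dctn5, Dynlt3, Dynlt1a, Kif22 and Kif4. Kif22 was at 15.5, 13, 12.4 and 11.3 CPM in tau IP against 8.71, 8.63 and 6.29 in EYFP IP (log2 fold change 0.75, SE 0.216, edgeR adjusted p = 0.318). Dynll1 took 37.4 to 53.9 percent of Dynll1 and Dynll2 per kilobase in tau IP, 28.6 to 35.9 percent in EYFP IP and 21 to 34.3 percent in the pre-IP libraries. Its relative Dynll2 had 769.4, 698.9, 659.6 and 668.9 CPM in tau IP and 695.2, 790.1 and 570.2 in EYFP IP, which overlap.

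Dync1h1 was at 50.1, 80.0, 84.0 and 89.5 CPM in tau IP and 143, 112 and 105 in EYFP IP, without overlap and lowest in animal B (log2 fold change -0.63, SE 0.216, edgeR adjusted p = 0.324). Kif13b was at 15.2, 21.9, 19.6 and 20.1 against 28.6, 30.3 and 28.8 CPM (log2 fold change -0.58, SE 0.176, edgeR adjusted p = 0.318). Dctn1 was at 289.7, 284.7, 270.7 and 250.1 against 386.3, 321 and 346.8 CPM (log2 fold change -0.34, SE 0.136, edgeR adjusted p = 0.381). Kif5a was at 353, 504, 825 and 901 CPM in tau IP of B, C, L and M and 906, 1031 and 917 in EYFP IP, so that L and M lay close to the EYFP animals and B and C far below (log2 fold change -0.53, SE 0.292, edgeR adjusted p = 0.503). Kif1a was at 287, 469, 369 and 394 against 628, 492 and 427 CPM, which overlap (log2 fold change -0.42, SE 0.196, edgeR adjusted p = 0.431).

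**Figure D4:**
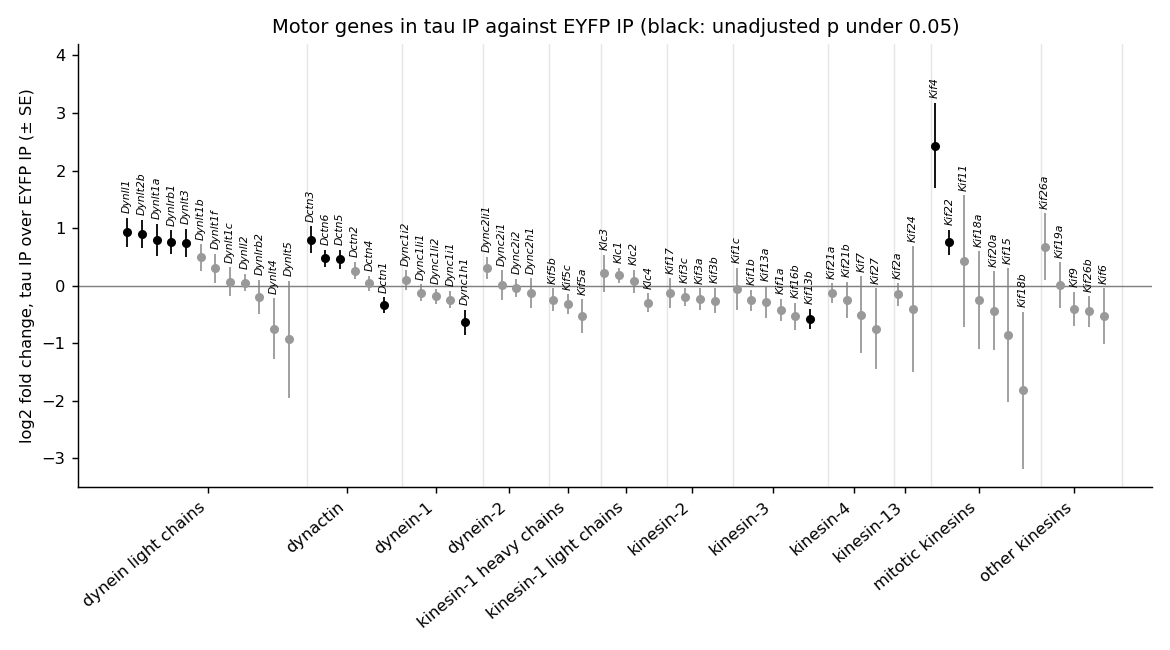
Log2 fold change of tau IP over EYFP IP with its SE (vertical axis) for the 62 motor genes tested, grouped by family (horizontal axis) and sorted within it; black points have an unadjusted p under 0.05. No gene passed after adjustment. Of 12 dynein light chains 9 lie above 0, among them Dynll1 (0.92) and Dynlrb1 (0.75), and all members of kinesin-1 heavy chains, kinesin-2, kinesin-3 and kinesin-4 below it. Over all genes tested, 8458 of 19472 lay above 0.

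By family, 9 of 12 tested dynein light chains and 5 of 6 dynactin subunits had log2 fold changes above 0, with medians of 0.396 and 0.361. All 3 kinesin-1 heavy chains, all 4 kinesin-2, all 6 tested kinesin-3 and all 4 kinesin-4 genes lay below 0, with medians of -0.317, -0.215, -0.354 and -0.373. The median was -0.144 over all members and -0.0773 over all genes, and 25 of 62 members and 8458 of 19472 genes lay above 0. Of the marker lists, 12 of 12 noradrenergic and 4 of 8 general neuronal markers lay above 0. That held for 0 of 8 markers of other neurons, 0 of 6 each of astrocytes, oligodendrocytes and microglia, and 0 of 4 of endothelial cells. The part of cell types in the family values was not tested. As a share of motor transcripts per kilobase, the dynein light chains made up 50 ± 3.05 percent in tau IP (SD, n = 4) and 43.3 ± 0.969 percent in EYFP IP (n = 3), with 43.2 ± 2.58 (n = 4) and 42.9 ± 2.47 (n = 3) in the pre-IP libraries. The kinesin-1 heavy chains made up 5.39 ± 2.18 percent in tau IP and 9.14 ± 0.861 in EYFP IP, and 11.2 ± 1.83 and 11.9 ± 1.78 in pre-IP. Tau IP and EYFP IP did not overlap in either share (47.9 to 54.5 against 42.7 to 44.4 percent, and 2.70 to 7.38 against 8.25 to 9.97 percent). Nor did they in the shares of dynein-1 (2.79 to 4.34 against 5.06 to 5.85 percent) and kinesin-3 (1.06 to 2.28 against 2.62 to 3.57 percent). The shares of kinesin-2, kinesin-4 and kinesin-13 were also lower in tau IP without overlap. All shares of a library are parts of the same whole, so they do not vary independently.

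The members differ in length, and the fold changes went with it. Across the 62 members the rank correlation of exon length with the log2 fold change was -0.39, and it was -0.29 across all 19468 tested genes with a length. The 21 members of up to 3877 bases had a median of 0.07 and the 21 of at least 6966 bases a median of -0.25, against 0.06 and -0.23 over all genes in the same length ranges. Dynlrb1 has 1009 exon bases and Dctn3 1042, while Dync1h1 has 15658 and Kif1a 9330. Genes are not independent replicates, and the part of length in these values was not tested. In tau pre-IP against EYFP pre-IP the rank correlation was -0.37 over members and -0.28 over all genes. It was -0.26 and -0.15 in the interaction, and -0.06 and -0.15 in IP against pre-IP.

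**Figure D5:**
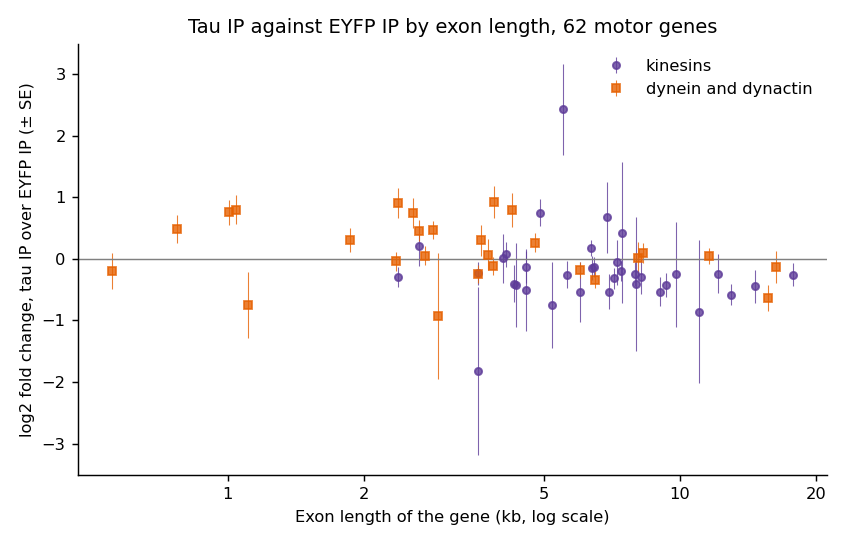
Exon length in kilobases on a log scale (horizontal axis) against the log2 fold change of tau IP over EYFP IP with its SE (vertical axis) for 62 motor genes, kinesins as circles and dynein and dynactin as squares. Short dynein light chains and dynactin subunits lie mostly above 0 and long kinesins mostly below it.

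Library numbers in the labels fall into a range up to 11 (2 tau and 2 EYFP animals) and one from 17 (2 tau and 1 EYFP). The difference of mean log2 CPM between tau and EYFP IP was 1.23 in the first range and 0.43 in the second for Dynll1, 0.98 and 0.38 for Dynlrb1, and 1.17 and 0.45 for Dynlt2b. It was -1 and -0.27 for Dync1h1, -1.20 and -0.09 for Kif5a, and -0.69 and -0.53 for Kif13b. For these 6 genes the sign was the same in both ranges and the size smaller in the second. The size was larger in the second range for Dctn1 (-0.29 and -0.41), Kif22 (0.71 and 0.91) and Kif4 (2.23 and 2.75). Tau animal M, of the second range, had the smallest noradrenergic mean of the 4, and its part in these values was not tested. With 1 EYFP animal, K, in the second range no test was made there.

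In the homogenate, tau pre-IP against EYFP pre-IP, no motor gene passed the test, and family medians lay between -0.149 and 0.225. edgeR called 0 of 63 members and 0 of 19197 genes (0 percent), and DESeq2 and voom also called 0 of both. At an unadjusted p of 0.05 edgeR passed 4 members (6.35 percent, against 2.84 percent of all genes), DESeq2 4 (against 3.23 percent of all genes) and voom 4 (against 3.47 percent). The 4 of edgeR were all lower in tau, as were 2.26 percent of all genes, and 3 of them did not overlap between groups (against 1.82 percent). Kif13a, a kinesin-3, was at 13, 15.7, 15.6 and 15.9 CPM in tau and 18.9, 18.5 and 21 in EYFP pre-IP (log2 fold change -0.37, SE 0.143, edgeR adjusted p = 1). Kif7, a kinesin-4 of the ciliary Hedgehog pathway, was at 0.704, 1.12, 1.22 and 1.29 against 1.43, 1.92 and 1.80 CPM (-0.66, SE 0.278, edgeR adjusted p = 1). Kif4 is given below, and Kif1c, the remaining 1, had -0.47 (SE 0.2, adjusted p = 1).

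Among positive fold changes the 3 members with the smallest p were Dynlt2b (0.23), Kif23, a cytokinesis motor (0.65), and Dynlrb2 (0.29), each with an edgeR adjusted p of 1. Kif5a stood at -0.02 (SE 0.189), Kif1a at 0.09 (SE 0.154) and Dync1h1 at 0.01 (SE 0.159). The dynein light chains had a median of 0.0091 and the kinesin-1 heavy chains of -0.0241. For scale, Dynll1 was at 508, 452.9, 423.3 and 374.3 CPM in tau pre-IP and 399.9, 517.8 and 366.1 in EYFP pre-IP, which overlap.

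Whether the tau difference itself differed between the fractions was tested as an interaction over all 14 libraries. edgeR called 0 of 64 members and 0 of 20495 genes (0 percent). At an unadjusted p of 0.05 it passed 11 members (9 higher, 2 lower), 17.2 percent of them against 5.97 percent of all genes (4.03 percent higher and 1.94 percent lower). The per-animal differences did not overlap for 7 members with a positive interaction (against 4.5 percent of all genes) and 3 with a negative one (against 6.27 percent). voom called 0, with 11 members at an unadjusted p of 0.05 (against 8.71 percent of all genes). DESeq2 passed 11 at an unadjusted p (against 6.82 percent) and called 1 member and 52 genes (0.254 percent), the member being Kif4 (adjusted p = 0.00643). So for no single light chain, Dynll1 and Dynlrb1 included, is the tau difference shown by edgeR or voom to differ between IP and homogenate. The interaction shares the IP libraries with the comparison above and is not a second observation of it.

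Kif4, a chromosome-binding kinesin of dividing and young cells, is a gene of low counts. Its levels were 1.43, 0.656, 0.936 and 0.830 CPM in tau IP of B, C, L and M and 0.352, 0.0807 and 0.0993 in EYFP IP of H, I and K. In pre-IP they were 0.228, 0.186, 0.305 and 0.0835 CPM in the tau animals and 0.570, 0.772 and 0.417 in the EYFP animals. Kif4 was thus higher in IP in 4 of 4 tau animals and lower in IP in 3 of 3 EYFP animals, and the groups overlapped in neither fraction. Its interaction in log2 units was 3.97 (SE 0.863, edgeR adjusted p = 0.267, range over alternatives 0.00643 to 1), with 2.43 in IP (SE 0.74, adjusted p = 0.318) and -1.53 in pre-IP (SE 0.477, adjusted p = 1). Of its 50-base stretches 14.5 percent also occur in other genes, among them Pdzd11 and the pseudogene Kif4-ps. The summed CPM of 6 markers of dividing cells was 4.21 to 5.33 in tau IP, where 1 of the 6 was at 0 counts in all libraries, and 3.14 to 5.43 in EYFP IP.

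The next smallest p-values of the interaction in that direction were those of Dynlt1a (0.93, SE 0.32, edgeR adjusted p = 0.706) and Dynll1 (0.90, SE 0.321, edgeR adjusted p = 0.73). Per animal, Dynll1 exceeded its pre-IP level in IP by 1.33, 0.89, 0.63 and 0.60 on the log2 scale in B, C, L and M, and the difference was 0.13, -0.20 and 0.31 in H, I and K. In the other direction stood Dync1h1 (-0.65, SE 0.281, adjusted p = 0.82), Kif13b (-0.54, SE 0.253, adjusted p = 0.82) and Kif1a (-0.51, SE 0.26, adjusted p = 0.82). Dync1h1 was lower in IP in 4 of 4 tau animals (-0.81, -0.20, -0.34 and -0.48) and higher in 2 of 3 EYFP animals (0.33, 0.46 and -0.08). Kif5a had an interaction of -0.51 (SE 0.372, adjusted p = 0.857) and was lower in IP in all 7 animals.

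Of the pathway lists, none had a gene past the edgeR threshold in these 3 comparisons. In tau IP against EYFP IP, 4 of the 20 kinesin adaptors had an unadjusted p under 0.05, against 12 percent of all genes, and all 4 were lower, against 4.06 percent (Clstn2, Clstn3, Fez1 and Mapk8ip3, at -0.78, -0.51, -0.40 and -0.54), with a list median of -0.33 against -0.0773 over all genes. The medians of the dynein regulators and of the dynactin rod and cap were -0.249 and 0.13.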

How the data were processed

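The deposited table holds raw read counts per gene, made by the authors: per the submitters' processing notes the tools were FastQC, Trim Galore, STAR and featureCounts on GRCm38/mm10, with versions, strand setting and use of multimapping reads not given in the sources used here. Per the labels, libraries were made with SMART-Seq v4 and Nextera XT, kits that do not mark strand. The RNA integrity number is a score and GC content of the reads a percent, both deposited by the authors per library. RNA concentration (ng per microlitre) and exon length (base pairs) are other values deposited by the authors. The human tau construct, 1 of 55422 entries, was kept in library sizes, scaling and tests. It held at most 47177 of the 56190995 counts of a library, in tau IP of animal B. Counts of all genes tested include it where it passed the filter.

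Each animal letter in the labels is 1 mouse with an IP and a pre-IP library. Within a fraction, p-values measure the spread between animals. In IP against pre-IP and in the interaction the main fit had no animal term. Its p-values there treat the IP and pre-IP library of a mouse as independent and measure the spread between 14 libraries. A fit with the animal as a replicate block was an alternative. Counts were tested with edgeR 4.0.16 in R 4.3.3: TMM scaling, filterByExpr, the quasi-likelihood F test and Benjamini-Hochberg adjustment over all genes tested, at 0.05. IP against pre-IP used 14 libraries with treatment as a term, tau against EYFP used the 7 libraries of a fraction, and the interaction used 14. The code was tested on simulated data. CPM are scaled by TMM over the 14 libraries, TPM use the deposited exon lengths, and per-animal differences are of log2 CPM with a prior count of 2. DESeq2 1.42.0, limma voom 3.58.1 with quality weights, other filters and scalings, covariates for sex label and library number, and leaving out each animal were the alternatives. Deviations of the IP and pre-IP library of an animal from their group means correlated at 0.15 to 0.36. Libraries of different animals were not compared in this way, so these values do not test the pairing, which rests on the letters in the labels.

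Genes named with full statistics were, for IP against pre-IP, members past the threshold whose fractions do not overlap, up to 10 a direction; elsewhere up to 5 a direction or, where none passed, the 3 with the smallest p; and always Kif5a, Kif1a and Dync1h1. Other members named were chosen after their values were seen. The members and lists were chosen with earlier results of these data known. Kif4 and Kif2c were counted with the mitotic kinesins. Of the 74 members, 63, 62, 63 and 64 passed the filter in IP against pre-IP, tau IP, tau pre-IP and the interaction, so the counts do not cover all members. Counts and floors cover counting error only.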

Additional observations from a re-analysis of the deposited data

Results flagged for a closer look

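Kif13a was at 13 CPM in the tau pre-IP library of animal B and at 15.6 to 15.9 in the other 3 tau pre-IP libraries, which sets B apart from its group. Kif7 was at 0.131 CPM in the tau IP library of animal C and at 0.888 to 1.04 in the other 3. Of 46 groups of 4 libraries examined over 23 members, these 2 held a library standing apart, and chance gives about 1 in 20.

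Kif4 in IP lay above its pre-IP level in 4 of 4 tau animals and below it in 3 of 3 EYFP animals, and the interaction was 3.97 on the log2 scale (edgeR adjusted p = 0.267). Dynlt1a, a light chain whose reads may belong to its near copies, was higher in IP by 0.99, 0.36, 0.44 and 0.13 in tau animals B, C, L and M, and the difference was -0.29, -0.75 and -0.20 in EYFP animals H, I and K. Its interaction was 0.93 (edgeR adjusted p = 0.706).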

How the results depend on the processing

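Of the alternative values of main results, 189 stayed and 15 moved. A count of called members stayed if it was within a set fold of the main count, or again 0. A family mean or share stayed if it was within the SD over animals or libraries, even where its sign changed. For fold changes of named genes, 560 values kept their direction and side of the threshold and 9 changed sign. Another 3 passed only in the alternative and 3 only in the main fit. In IP against pre-IP, EYFP animals alone gave 9 called members, and leaving out 1 animal at a time gave 19 to 24. With the animal as a replicate block, 24 members were called, Kif26a being added (-0.96, edgeR adjusted p = 0.0321), and 0 in the interaction; the block changed no other call of a named gene. DESeq2 called 5 members in tau IP against EYFP IP and 1 in the interaction. Over all genes, tau IP against EYFP IP gave 0 calls in edgeR but 113 without a filter, 200 with all 14 libraries in a single fit and 128 without animal M; the interaction gave 67 without a filter and 56 without M, and the pre-IP comparison 44 without a filter. None of these was a member.

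Shares of motor transcripts not divided by length were 17.5 percent for dynactin, 25.9 for dynein light chains, 7.06 for dynein-1, 1.13 for dynein-2, 18.9 for kinesin-1 heavy chains, 16.4 for kinesin-1 light chains, 0.171 for kinesin-13, 2.73 for kinesin-2, 8.67 for kinesin-3, 1.17 for kinesin-4, 0.126 for mitotic and 0.292 for other kinesins; the missing division by length is what differs.

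Signs turned for Dync1h1 in IP against pre-IP with EYFP animals alone (0.23), and in the pre-IP comparison with library-number range as a covariate (-0.0458). Leaving out 1 animal moved the pre-IP values of Kif5a from -0.159 to 0.088, of Kif1a from -0.00989 to 0.178 and of Dync1h1 from -0.126 to 0.104. The cause was not tested. Members under 1 CPM, Kif4 included, rest on few reads.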
